A study of Homo sapiens with 18 samples.

Results

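The 7 genes described here, NPPB, ANKRD1, F3, EDN1, CRIM1, CCDC80 and NUAK2, are targets of TEAD transcription factors linked to stretch, vascular tone, clotting and matrix. They were chosen by name, with their values under the TEAD inhibitor VT107 already known from these data for parental H2052 cells and, where they have a row, for H226 cells. All 7 have a row in the H2052 count table, which lists 30954 gene IDs, and 4 of them (F3, CRIM1, CCDC80 and NUAK2) have a row in the H226 table, which lists 19284. NCI-H2052 and NCI-H226 are human pleural mesothelioma cell lines with Hippo pathway mutations, NF2 and LATS2 in H2052 and NF2 in H226, and all groups of a line carry them. PolyA RNA was sequenced after 24 h in 1 µM VT107 or an equivalent volume of DMSO, with 3 replicates in each of 6 groups. The groups are NF1 mutant H2052 cells in VT107, NF1 mutant H2052 cells in DMSO, parental H2052 cells in VT107, parental H2052 cells in DMSO, H226 cells in VT107 and H226 cells in DMSO. The NF1 mutant cells were made with CRISPR/Cas9 and an sgRNA against NF1, the gene of a Ras-inactivating protein.

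TEAD1 to TEAD4 bind DNA and recruit the coactivators YAP and TAZ, which the Hippo kinases LATS1 and LATS2 keep out of the nucleus. VT107 blocks the palmitoylation of TEAD proteins. Loss of NF2 or LATS2 releases YAP and TAZ, so mesotheliomas with such mutations transcribe TEAD targets at a high level. Several of these targets are also classical responses of heart muscle and vessel wall to mechanical load. NPPB encodes brain natriuretic peptide, ANKRD1 a muscle ankyrin repeat protein that binds titin, EDN1 the vasoconstrictor endothelin-1, and F3 tissue factor, the cell surface receptor that starts coagulation with factor VII. CRIM1 encodes a transmembrane protein that binds bone morphogenetic proteins, CCDC80 a secreted matrix protein, and NUAK2 a kinase of the AMPK-related family.

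In hg19, the build of the count tables, NPPB (ENSG00000120937) lies at chr1:11917521-11918988, F3 (ENSG00000117525) at chr1:94994781-95007356 and NUAK2 (ENSG00000163545) at chr1:205271187-205290883, all on the minus strand. CRIM1 (ENSG00000150938) lies at chr2:36583069-36778278 on the plus strand, CCDC80 (ENSG00000091986) at chr3:112323407-112368377 on the minus strand, EDN1 (ENSG00000078401) at chr6:12290596-12297427 on the plus strand and ANKRD1 (ENSG00000148677) at chr10:92671853-92681033 on the minus strand. CRIM1 was the only member with a gene listed on its opposite strand, AC007401.2, which had 105 counts over the 3 parental DMSO libraries, against 12359 for CRIM1.

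RefSeq promoters (GRCh38.p14, a different build from that of the counts) were read for ANKRD1, NUAK2, EDN1, F3 and CCDC80, 5 of the 7 genes, and the 250 bases before the start site were searched for motifs. The letters CATTCC on either strand, the core bound by TEAD, were present in 11.9% of all 34943 such windows and occurred at 2 or more places in 0.942%. The letters TGANTCA, the AP-1 site, were present in 6.59% and at 2 or more places in 0.404%. The 2 motifs did not overlap in the windows shown. ANKRD1 and NUAK2 each held 2 TEAD motifs, ANKRD1 held 1 AP-1 motif, and F3 held 2 AP-1 motifs and no TEAD motif. EDN1 has 3 annotated starts, of which the middle one held 1 TEAD motif. The windows of its first and last starts held neither motif. The shares above are per window, and which EDN1 start is used in these cells was not examined. The CCDC80 window held neither motif. The 4 windows with a match are printed 5′ to 3′ on the strand of the gene, up to the base before the start, with motif matches in capitals. They show the TEAD and AP-1 letters next to these genes, and a match is not a measured binding site.
ANKRD1, chr10:90921088-90921337, minus strand: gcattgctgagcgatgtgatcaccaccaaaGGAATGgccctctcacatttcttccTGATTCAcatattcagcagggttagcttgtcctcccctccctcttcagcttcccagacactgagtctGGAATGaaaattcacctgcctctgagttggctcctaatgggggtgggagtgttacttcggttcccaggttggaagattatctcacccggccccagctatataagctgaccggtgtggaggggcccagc
NUAK2, chr1:205321746-205321995, minus strand: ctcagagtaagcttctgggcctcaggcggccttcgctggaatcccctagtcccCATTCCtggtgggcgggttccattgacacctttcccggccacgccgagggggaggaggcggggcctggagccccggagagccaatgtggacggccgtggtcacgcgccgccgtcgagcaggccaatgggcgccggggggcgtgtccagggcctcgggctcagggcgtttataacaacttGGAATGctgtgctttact
EDN1, middle start, chr6:12289764-12290013, plus strand: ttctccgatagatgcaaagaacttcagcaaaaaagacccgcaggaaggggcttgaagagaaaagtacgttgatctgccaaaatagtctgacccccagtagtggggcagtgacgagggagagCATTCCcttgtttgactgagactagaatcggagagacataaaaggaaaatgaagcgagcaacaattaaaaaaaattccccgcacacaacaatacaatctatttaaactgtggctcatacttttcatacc
F3, chr1:94541760-94542009, minus strand: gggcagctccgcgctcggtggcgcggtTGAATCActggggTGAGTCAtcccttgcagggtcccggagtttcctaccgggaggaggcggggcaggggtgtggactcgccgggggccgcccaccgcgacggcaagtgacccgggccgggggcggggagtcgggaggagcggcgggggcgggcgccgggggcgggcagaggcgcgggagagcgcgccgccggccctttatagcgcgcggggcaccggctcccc

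Total counts ran to 3285363 to 4806065 in NF1 mutant VT107 libraries and 3988479 to 5489092 in NF1 mutant DMSO libraries, against 12424914 to 13346712 in parental VT107 and 10950284 to 13418485 in parental DMSO libraries. Replicate 1 of NF1 mutant VT107 stood apart: its log2 CPM (counts scaled to a library total of 1000000) correlated at 0.79 and 0.81 with the other two replicates, which correlated at 0.98 with each other. Replicate 3 stood apart in both parental groups, with correlations of 0.93 to 0.96 with its own group's replicates. NF1 itself had 29 to 89 counts in NF1 mutant VT107 and 70 to 77 in NF1 mutant DMSO libraries, against 361 to 853 in parental VT107 and 377 to 867 in parental DMSO libraries. These are raw counts, not scaled to the library totals. The totals were lower in NF1 mutant libraries, so the counts overstate the difference. Replicate 3 had the lowest NF1 count of each parental group, at 361 in VT107 and 377 in DMSO. Markers of mesothelioma, 12 genes, summed to 4119 to 6298 CPM in NF1 mutant and 2077 to 4044 CPM in parental H2052 libraries. Nearly all of it was the keratins KRT8, KRT18 and KRT19, and 2 to 4 of the 12 were at 0. KRT5 averaged 0 in every H2052 group, CALB2 0.0836 to 3.93 CPM and MSLN 17.7 to 32.2 CPM. KRT19 averaged 3815 and 3031 CPM in NF1 mutant VT107 and DMSO, against 1595 and 1503 CPM in parental VT107 and DMSO. Heart muscle markers, the cell type best known for NPPB and ANKRD1, summed to 2.43 to 6.78 CPM, with 5 or 6 of 8 at 0. Leukocyte markers summed to 12.7 to 21.3 CPM in NF1 mutant VT107 and 6.27 to 8.83 CPM in NF1 mutant DMSO libraries, nearly all of it CD68, while CD3E, CD53, LCP2 and SPI1 averaged 0. Endothelial markers summed to 35.9 to 73.4 CPM in NF1 mutant and 12.9 to 33.0 CPM in parental libraries, nearly all of it TIE1, with VWF, TEK and CLDN5 at 0. Fibroblast markers, 7 genes, summed to 369 to 682 CPM in NF1 mutant VT107, 537 to 566 CPM in NF1 mutant DMSO, 347 to 747 CPM in parental VT107 and 419 to 648 CPM in parental DMSO libraries. Of these, the collagen genes COL1A1 (log2 fold change 0.53, adjusted p 0.0278) and COL1A2 (1.11, 0.0227) rose with VT107 in NF1 mutant cells without VT107 replicate 1, by the edgeR test used for the members. With all 6 libraries neither passed that test, with COL1A1 at 0.31 (adjusted p 0.783) and COL1A2 at 0.60 (0.815). COL1A1 was also higher in NF1 mutant than in parental cells in DMSO (0.72, adjusted p 0.0112), and was the only 1 of 5 fibroblast markers tested to pass. COL1A2 went the other way there, with a mean of 13.3 CPM in NF1 mutant and 29.1 CPM in parental cells. The median log2 fold change of the 5 was 0.053. The part of these cell types in the results was not tested.

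**Figure D1:**
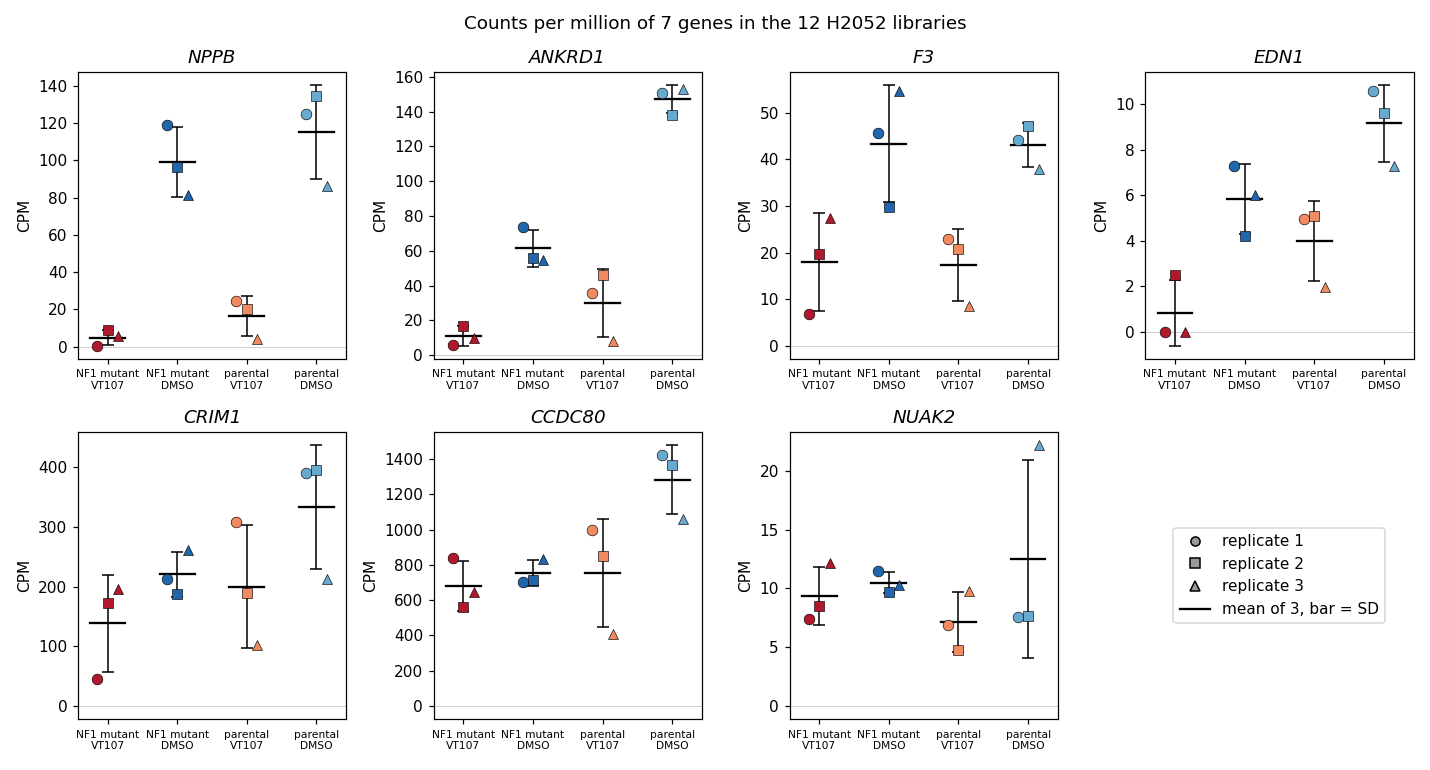
CPM (y axis, linear) of each gene in the 12 H2052 libraries, grouped on the x axis as NF1 mutant VT107, NF1 mutant DMSO, parental VT107 and parental DMSO; symbols are replicates, the line is the mean and the bar the SD of 3. NPPB, ANKRD1, F3 and EDN1 lie lower in VT107 than in DMSO with no overlap in either genotype, whereas NUAK2 overlaps in both.

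NPPB was the gene most reduced. In NF1 mutant cells it stood at 0.463, 8.74 and 5.48 CPM in VT107 (replicates 1 to 3), against 119, 96.5 and 81.5 CPM in DMSO. The groups did not overlap, and the DMSO mean was 20.2 times that of VT107. The lowest library rests on 2 counts. In bulk RNA, fewer cells that express a gene and less of its RNA per cell cannot be told apart. In parental cells the values were 24.6, 20.4 and 4.14 CPM in VT107, against 125, 134 and 86.4 CPM in DMSO, and the DMSO mean was 7.03 times that of VT107. Ordered by mean, NF1 mutant VT107 (4.89 ± 4.17 CPM, SD, n = 3) was lowest, followed by parental VT107 (16.4 ± 10.8), NF1 mutant DMSO (98.9 ± 18.8) and parental DMSO (115 ± 25.4), and the libraries of both VT107 groups overlapped, as did those of both DMSO groups.

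ANKRD1 differed by treatment and by genotype. It had 6.02, 17.1 and 10.0 CPM in NF1 mutant VT107, against 73.8, 55.9 and 54.7 CPM in NF1 mutant DMSO libraries. It had 35.5, 46.0 and 8.13 CPM in parental VT107, against 151, 138 and 153 CPM in parental DMSO libraries. The DMSO mean was 5.56 times the VT107 mean in NF1 mutant and 4.94 times in parental cells. The order of the groups was that of NPPB, but for ANKRD1 every NF1 mutant DMSO library lay under every parental DMSO library, and only the VT107 groups overlapped.

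F3 had 6.72, 19.8 and 27.4 CPM in NF1 mutant VT107, against 45.7, 29.8 and 54.7 CPM in NF1 mutant DMSO libraries. The gap between the groups was narrow, since the highest VT107 library stood at 27.4 and the lowest DMSO library at 29.8 CPM. Parental cells held 22.9, 20.7 and 8.43 CPM in VT107, against 44.2, 47.1 and 38.0 CPM in DMSO. Group means were close between genotypes, at 18.0 ± 10.5 CPM in NF1 mutant VT107 and 17.3 ± 7.80 in parental VT107, and at 43.4 ± 12.6 in NF1 mutant DMSO and 43.1 ± 4.66 in parental DMSO cells.

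EDN1 had the fewest counts. NF1 mutant VT107 libraries held 0, 12 and 0 counts (0, 2.50 and 0 CPM), against 40, 19 and 24 counts (7.29, 4.20 and 6.02 CPM) in NF1 mutant DMSO libraries. A count of 0 allows up to 0.695 CPM in replicate 1 and 0.913 CPM in replicate 3 (3 counts per library, counting error only), both under every DMSO library. In parental cells EDN1 stood at 4.95, 5.07 and 1.96 CPM in VT107, against 10.6, 9.61 and 7.31 CPM in DMSO. The libraries of each genotype separated by treatment, but NF1 mutant DMSO and parental VT107 libraries overlapped.

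CRIM1 and CCDC80 were the abundant members. CRIM1 had 45.9, 173 and 196 CPM in NF1 mutant VT107, against 213, 187 and 261 CPM in NF1 mutant DMSO libraries, and the groups overlapped between 187 and 196 CPM. It had 308, 190 and 102 CPM in parental VT107, against 391, 395 and 213 CPM in parental DMSO libraries, which also overlapped. CCDC80 stood at 839, 563 and 646 CPM in NF1 mutant VT107, against 704, 717 and 836 CPM in NF1 mutant DMSO libraries, with the highest value in a VT107 library. Parental libraries had 998, 851 and 410 CPM in VT107, against 1422, 1368 and 1058 CPM in DMSO, without overlap. The overlap in NF1 mutant cells rests on VT107 replicate 1 at 839 CPM, since VT107 replicates 2 and 3 both lay under every DMSO library.

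NUAK2 overlapped between treatments in both genotypes. It had 7.41, 8.53 and 12.2 CPM in NF1 mutant VT107, against 11.5, 9.71 and 10.3 CPM in NF1 mutant DMSO libraries. In parental cells it had 6.89, 4.75 and 9.79 CPM in VT107, against 7.61, 7.68 and 22.2 CPM in DMSO. Within each replicate number the parental VT107 library was the lower one. The value of 22.2 came from DMSO replicate 3, and the parental log2 fold change was -0.77 with all libraries, -0.021 without that one alone and -0.28 without both number 3 libraries.

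The response to VT107 in NF1 mutant cells is the one VT107 response tested here. Its libraries are not those whose values are known to have served in choosing the genes. The paper had already reported from them that ANKRD1 stayed unrestored in NF1 mutant cells under VT107, so the result for ANKRD1 is not independent of it. ANKRD1 and F3, 2 of the 5 members that passed the filter on low values, were lower in VT107 with no overlap between groups, where 9.18% of the 11605 genes tested were. NPPB and EDN1 were also lower without overlap, but it was their low VT107 libraries that kept them out of the filter, and they are not read against that share. The log2 fold changes were -4.30 ± 0.70 (SE) for NPPB, -2.41 ± 0.36 for ANKRD1, -2.59 ± 0.96 for EDN1 and -1.24 ± 0.45 for F3. For CRIM1 it was -0.64 ± 0.44. For CCDC80 it was -0.0049 with a 95% interval from -0.68 to 0.67, and for NUAK2 -0.085 with an interval from -0.72 to 0.55. Neither interval holds a fall as large as those of NPPB and ANKRD1. A log2 fold change of -1 or lower was seen in 0.939% of genes tested. NPPB and EDN1 fell under 0.5 CPM in a VT107 library and so missed the expression filter, which 5 of 7 members passed, and their values come from a fit of genes at 0.5 CPM in at least 3 libraries. Both needed their DMSO libraries, where they are high, to reach that looser filter. Their fold changes and adjusted p under it are therefore a description.

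With all 6 libraries, edgeR's quasi-likelihood test called no gene in these cells (0.00%, although 623 had an unadjusted p under 0.05), and so no member: its adjusted p was 0.327 for ANKRD1, 0.509 for NPPB, 0.773 for F3 and CRIM1, 0.829 for EDN1, 0.915 for NUAK2 and 0.994 for CCDC80. DESeq2 called 20 genes, 10 of them lower (0.0862%), and voomWithQualityWeights 170, 62 of them lower (0.534%). ANKRD1 was among the falls in both, with adjusted p of 2.09e-06 and 0.000164, and none of the other 4 members in these fits was. NPPB and EDN1 missed the filter and were not tested by these tools. Without VT107 replicate 1 edgeR called 198 genes, 89 of them lower (0.715%), and 2 members fell. NPPB stood at -3.77 ± 0.24 (adjusted p 5.25e-07) and ANKRD1 at -2.16 ± 0.22 (adjusted p 0.000102). F3 then stood at -0.91 ± 0.23 (adjusted p 0.0676), EDN1 at -2.03 ± 0.60 under the looser filter (adjusted p 0.118), CCDC80 at -0.33 ± 0.12 (0.226), CRIM1 at -0.27 ± 0.14 (0.406) and NUAK2 at -0.066 ± 0.26 (0.948). Leaving that library out moved the estimate for CRIM1 from -0.64 to -0.27, and its value of 45.9 CPM there was the lowest of the 12 libraries.

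**Figure D2:**
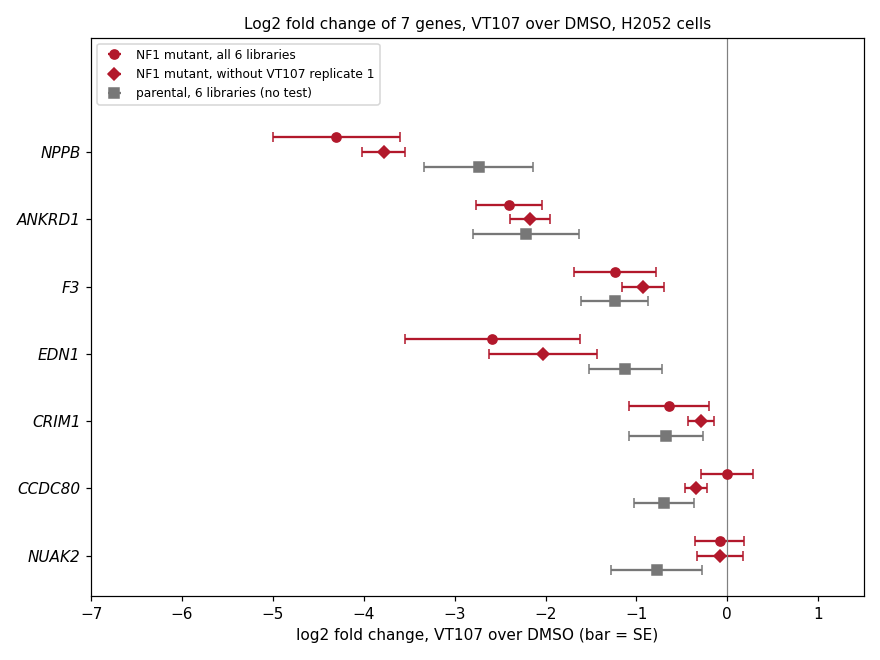
Log2 fold change (x axis), VT107 over DMSO, of the 7 genes (y axis) in NF1 mutant H2052 cells with all 6 libraries (circles), without VT107 replicate 1 (diamonds, filter of 0.5 CPM in at least 3 libraries) and in parental H2052 cells (squares, shown without a test because they chose the genes); bars are SE. NPPB and ANKRD1 lie below -2 in all 3, NUAK2 lies near 0 in both NF1 mutant fits, and CCDC80 lies near 0 with all libraries and at -0.34 without VT107 replicate 1.

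For parental cells the response to VT107 is a description, since it served to choose the genes. The log2 fold changes were -2.74 for NPPB, -2.21 for ANKRD1, -1.24 for F3, -1.12 for EDN1, -0.67 for CRIM1, -0.70 for CCDC80 and -0.77 for NUAK2. With the replicate number as a block, since same-numbered libraries deviated together here, they were -2.94, -2.45, -1.33, -1.18, -0.76, -0.79 and -0.65 in the same order. Without the number 3 libraries, which stood apart, they were -2.41, -1.68, -0.94, -0.89, -0.56, -0.47 and -0.28. The 2 members nearest to 0 by the unblocked values were CRIM1 and CCDC80. No overlap between groups was found for 5 of 7, all but CRIM1 and NUAK2, where 6.22% of all genes tested were lower in this way. Whether the response differed between genotypes was not tested, because the parental response chose the genes.

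Genotype was compared first under VT107, where edgeR called no gene of 11654 (0.00%, with 1945 at an unadjusted p under 0.05). Of the members, NPPB had a log2 fold change of -1.75 ± 0.86 (adjusted p 0.357) and EDN1 of -2.12 ± 1.07 (0.367) in NF1 mutant over parental cells, both under the looser filter. Both needed the parental libraries, where their means are higher, to reach that filter, so these values are a description. ANKRD1 stood at -1.46 ± 0.65 (0.304), CRIM1 at -0.55 ± 0.54 (0.640), CCDC80 at -0.065 ± 0.44 (0.960), F3 at 0.021 ± 0.54 (0.990) and NUAK2 at 0.44 ± 0.38 (0.584), and the libraries of all 7 overlapped, where 14.1% of genes tested were lower and 9.99% higher without overlap. For 3 members the overlap rests on parental VT107 replicate 3. Without it the highest NF1 mutant and the lowest parental library stood at 8.74 and 20.4 CPM for NPPB, at 17.1 and 35.5 CPM for ANKRD1 and at 2.50 and 4.95 CPM for EDN1. The share of all genes that separate in this split was not computed, and the parental libraries served to choose the genes. These gaps are a description. The edgeR test without parental VT107 replicate 3 called 82 genes, with ANKRD1 at -1.91 (adjusted p 0.114) and none of the 5 members tested among them. DESeq2 called 682 genes and none of the 5 members tested, and edgeR without NF1 mutant VT107 replicate 1 called 185 and none of the 6 tested. voomWithQualityWeights called 17.6% of genes lower and 13.5% higher, 3625 in all, with ANKRD1 at -1.62 (adjusted p 0.00612) and CCDC80 at -0.59 (0.0425) lower and NUAK2 at 0.73 (0.0467) higher.

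In DMSO, ANKRD1 and CCDC80 fell in NF1 mutant relative to parental cells, 2 of 7 members, where edgeR called 14.9% of 12475 genes lower. The parental DMSO libraries served to choose the genes, so some lean to lower values here can come from the choice. ANKRD1 fell by 1.23 on the log2 scale (SE 0.15, adjusted p 0.000774), with 61.4 ± 10.7 CPM in NF1 mutant and 147 ± 7.96 CPM in parental cells. CCDC80 fell by 0.73 (SE 0.13, adjusted p 0.00436), with 752 ± 72.8 CPM in NF1 mutant and 1283 ± 196 CPM in parental cells. EDN1 was also lower without overlap, as were 23.5% of genes tested, at -0.61 ± 0.26, but did not pass the test (adjusted p 0.116). CRIM1 stood at -0.55 ± 0.22 (0.0934), NPPB at -0.18 ± 0.19 (0.526), NUAK2 at -0.22 ± 0.43 (0.743) and F3 at 0.041 ± 0.21 (0.905, 95% interval from -0.43 to 0.51). Both falls also passed in each fit that left out 1 library, with adjusted p of 4.29e-08 to 0.0105 for ANKRD1 and 1.21e-07 to 0.0331 for CCDC80, and neither passed when all 4 H2052 groups shared 1 fit. With all 6 libraries, voomWithQualityWeights called 5 members lower and 1 higher, where it called 26.5% of genes lower and 26.1% higher. Besides ANKRD1 and CCDC80, CRIM1 (-0.76, adjusted p 1.50e-05), EDN1 (-0.67, 0.0160) and NPPB (-0.31, 0.0402) were lower there, and NUAK2 (0.49, 0.0496) was higher.

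The number of genotype calls depended on parental DMSO replicate 3. Without it 6409 genes passed and 3304 (26.3% of those tested) fell, among them ANKRD1, CCDC80, CRIM1 (-0.79, adjusted p 2.85e-06), EDN1 (-0.73, 0.0136) and NPPB (-0.34, 0.0243), whereas NUAK2 turned to 0.51 and rose (0.0434). F3 stood at -0.035 (0.873). For NUAK2's rise the share of genes called higher was 24.7%. Of the lists described further on, 10 of 16 other YAP/TAZ-TEAD targets then fell and 2 rose, 5 of 14 clotting genes fell and 1 rose, and 5 of 13 kinases related to NUAK2 fell and 1 rose. The parental libraries of both genotype comparisons are those that served in choosing the genes. The size of any lean this brings was not tested. NF1 mutant libraries also had lower total counts, and their columns lack a prefix that the parental columns carry and that is not explained in the sources used here. Genotype and whatever else set these libraries apart cannot be told apart.

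**Figure D3:**
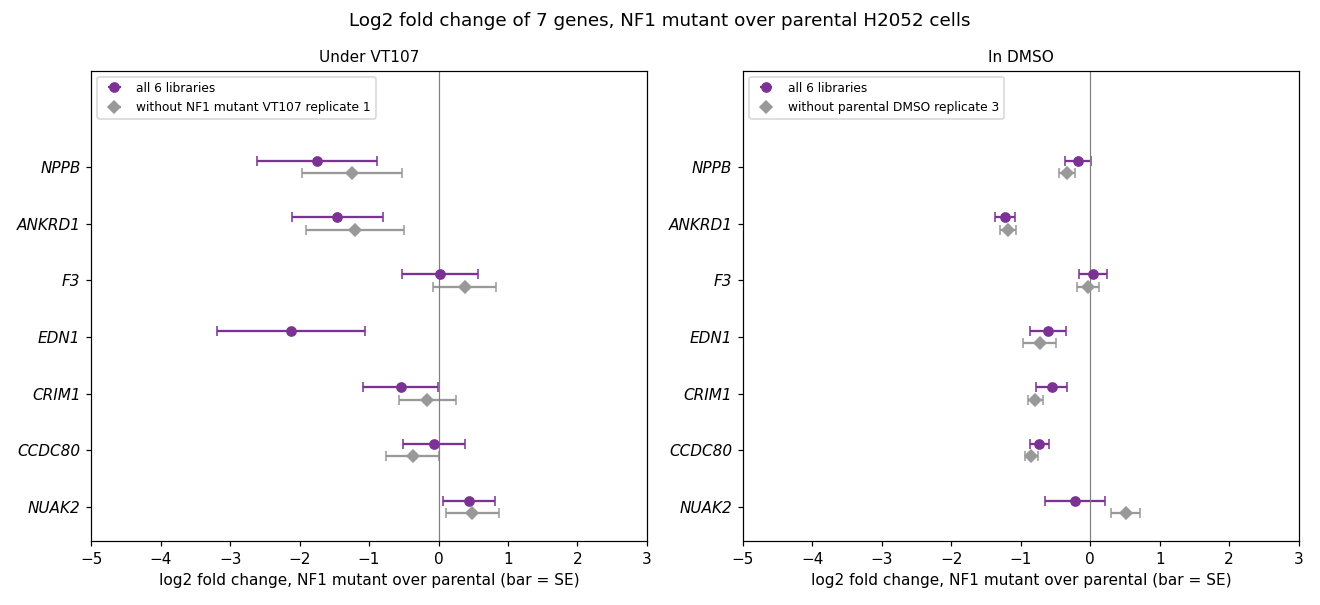
Log2 fold change (x axis), NF1 mutant over parental H2052 cells, of the 7 genes (y axis), under VT107 on the left and in DMSO on the right; circles use all 6 libraries, diamonds leave out the library named in each legend, and bars are SE (no diamond is drawn for EDN1 under VT107, which missed the filter). ANKRD1 lies near -1.2 in DMSO with and without parental replicate 3, whereas NUAK2 changes side of 0.

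The same libraries held other genes of these pathways, in lists written with earlier results known. Of 17 other YAP/TAZ-TEAD targets, 15 were tested for VT107 in NF1 mutant cells and none passed edgeR's test with all 6 libraries. Of these, 12 had a negative log2 fold change, against 47.5% of all genes, and their median was -0.35, against 0.032 over all genes. The paper had named IGFBP3, CTGF and CYR61 among the strongest falls with VT107 in parental H2052 and H226 cells. From these NF1 mutant libraries it had also reported that CTGF, CYR61, AMOTL2, FJX1 and ARHGEF17 were not restored under VT107. Some lean to lower values was therefore set by the choice of the list, and it is given as a description. The calls for VT107 that follow are not independent of what the paper reported. Without VT107 replicate 1, 5 of 16 fell, where 0.715% of all genes were called lower. These were IGFBP3, an IGF-binding protein, at -2.63 (adjusted p 1.04e-06), CTGF, a matricellular protein, at -1.69 (0.000255), CYR61, its relative, at -1.24 (0.00531), AMOTL2, a YAP-binding angiomotin, at -0.93 (0.00424), and the growth factor TGFB2 at -0.92 (0.0214). In DMSO, 8 of 16 fell in NF1 mutant relative to parental cells, where 14.9% of all genes were called lower. Among them were AMOTL2 at -1.15 (adjusted p 0.000524), CTGF at -0.98 (0.00579) and TGFB2 at -0.59 (0.0188), whereas IGFBP3 stood at -0.13 (0.607). The caution on parental DMSO libraries given for the members holds for this list as well. By genotype under VT107, 0 of 15 passed edgeR's test. DESeq2 called 2 of 15 lower, where it called 3.85% of all genes lower, and voomWithQualityWeights 9 of 15, against 17.6%.

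**Figure D4:**
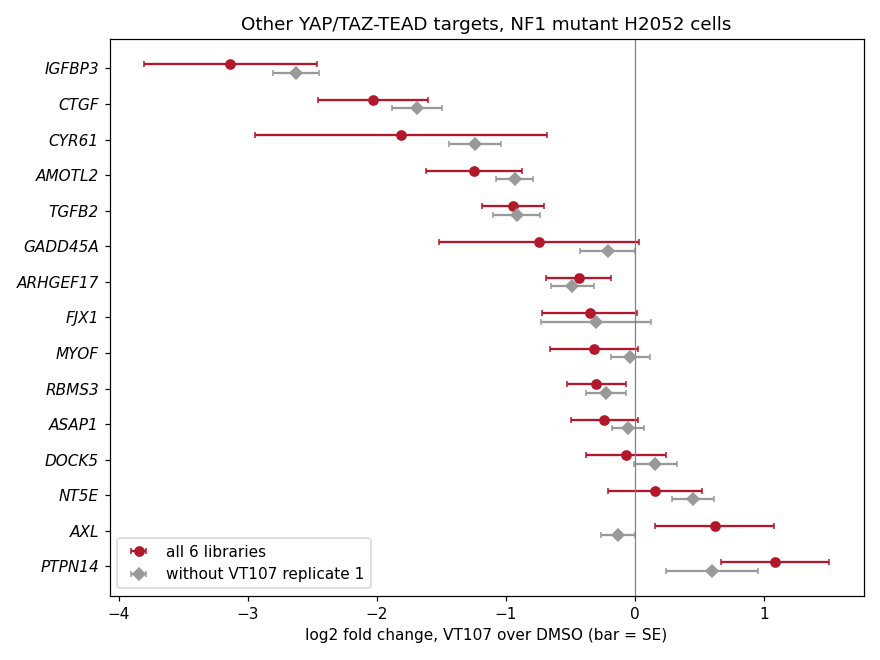
Log2 fold change (x axis), VT107 over DMSO in NF1 mutant H2052 cells, of the 15 other YAP/TAZ-TEAD targets tested (y axis), with all 6 libraries (circles) and without VT107 replicate 1 (diamonds); bars are SE. IGFBP3 and CTGF lie lowest in both fits, and AXL and DOCK5 change side of 0.

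None of the receptors and processing enzymes of the ligands passed edgeR's test with all libraries. Of 8 natriuretic peptide genes, 4 were tested for VT107 in NF1 mutant cells and none passed: the receptors NPR2 and NPR3 stood at 0.22 ± 0.31 and -0.14 ± 0.40, the protease FURIN, which cleaves the precursor, at 0.11 ± 0.22, and the degrading enzyme MME at 0.37 ± 0.26. Without VT107 replicate 1, MME rose by 0.56 (SE 0.13, adjusted p 0.0375), where 0.876% of all genes were called higher. By genotype none of 5 tested passed in DMSO and none of 4 under VT107. Without parental DMSO replicate 3, NPR2 (0.74, adjusted p 0.000341) and FURIN (0.53, 0.00287) rose and MME fell (-0.73, 2.77e-06) in NF1 mutant cells. In that fit 24.7% of all genes were called higher and 26.3% lower. With voomWithQualityWeights 2 of 5 rose and 2 fell in DMSO, where it called 26.1% of all genes higher and 26.5% lower. Under VT107 it called 1 of 4 higher, against 13.5% of all genes. Of 6 other endothelin genes, the converting enzymes ECE1 (0.17 ± 0.21) and ECE2 (0.60 ± 0.40) were the 2 tested for VT107 in NF1 mutant cells, and neither passed edgeR's test in any of the 3 tested comparisons with all libraries. By genotype in DMSO, ECE1 rose without parental replicate 3 (0.73, adjusted p 3.7e-06), where 24.7% of all genes were called higher. In both genotype comparisons voomWithQualityWeights called 1 of the 2 higher. Of all genes, voomWithQualityWeights called 26.1% higher in DMSO and 13.5% higher under VT107.

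Of 17 other genes of clotting and fibrinolysis, 13 were tested for VT107 in NF1 mutant cells and none passed, with a median of -0.097. The thrombin receptor F2R stood at 1.01 ± 0.38 (adjusted p 0.773), thrombomodulin (THBD) at 0.72 ± 0.36 (0.773), the protease-activated receptor F2RL2 at -0.79 ± 0.42 (0.773) and tissue plasminogen activator (PLAT) at -0.36 ± 0.20 (0.773). Without VT107 replicate 1 none of 14 passed. In DMSO, 4 of 14 fell in NF1 mutant relative to parental cells, where 14.9% of all genes were called lower, among them F2R at -1.23 (adjusted p 0.0242), TFPI, the inhibitor of the tissue factor pathway, at -0.97 (0.00616) and SERPINE2, an inhibitor of thrombin and urokinase, at -0.73 (0.00663). F3 itself was not among them. By genotype under VT107 none of 13 passed edgeR's test with all libraries. Without NF1 mutant VT107 replicate 1, 1 of 14 fell, TFPI at -1.25 (adjusted p 0.0464), where 1.19% of all genes were called lower. DESeq2 called 1 of 13 lower, against 3.85% of all genes. With voomWithQualityWeights 2 fell and 1 rose, where it called 17.6% of all genes lower and 13.5% higher.

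Among 14 kinases related to NUAK2, 0 of 11 passed for VT107 in NF1 mutant cells, where BRSK1 had the smallest p at 0.99 ± 0.53 (adjusted p 0.773). By genotype under VT107, 0 of 11 passed edgeR's test. There voomWithQualityWeights called 3 lower and 1 higher, where it called 17.6% of all genes lower and 13.5% higher. In DMSO 3 of 13 fell and 1 rose in NF1 mutant cells, against 14.9% of all genes lower and 12.5% higher, with log2 fold changes of -1.47 for NUAK1, its closest relative (adjusted p 0.00758), -1.01 for PRKAA2 (0.0310) and -0.92 for MARK2 (0.00251), and MARK4 rose by 0.61 (0.0120). Of the 3 titin-associated genes, ANKRD23, a relative of ANKRD1, and TTN, titin, were tested and stood at -0.62 ± 0.29 and -0.25 ± 0.31 for VT107 in NF1 mutant cells (adjusted p 0.773 and 0.813). In DMSO TTN fell by 1.14 (0.0228) in NF1 mutant cells.

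Likeness of pattern was measured as the root mean square difference of centred log2 CPM over the 12 H2052 libraries, among 8925 genes with a mean log2 CPM of at least 3, as a description. Nearest to NPPB were IGFBP3 (0.71) and ANKRD1 (1.04), nearest to ANKRD1 were SNAPC1 (0.60) and CTGF (0.79), and nearest to EDN1 were ANKRD1 (0.95) and COL12A1 (0.99). F3 was nearest to GPR126 (0.31) and RNF144B (0.32), CRIM1 to UTP20 (0.20) and FNBP1 (0.20), CCDC80 to DDX21 (0.21) and AC013461.1 (0.21), and NUAK2 to LIPA (0.24) and HMOX2 (0.27). Among the members, F3 and CRIM1 were the closest pair (0.46) and NPPB and NUAK2 the farthest (2.31). These libraries include those that stood apart, which weigh on each distance.

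The H226 rows need a caution before their values. Strand was checked with 31 pairs of overlapping genes, in which a gene of 3000 or more counts in parental DMSO libraries is covered to 90% or more by another gene on the other strand with a count 20 times lower or less. The abundant gene was also the higher one in NF1 mutant DMSO libraries in 31 of 31. In the H226 DMSO libraries its partner was higher in 24 of the 24 pairs listed, and the gene abundant in H2052 had a median of 0.54% of its partner's counts. By this check H226 rows count the strand opposite to the named gene, and the values that follow are counts on those rows, not mRNA levels of the members. The F3 row held 14, 14 and 8 counts in VT107, against 116, 72 and 70 in DMSO, and the CCDC80 row 121, 69 and 102, against 389, 283 and 195. The NUAK2 row held 25, 17 and 14 counts in VT107, against 33, 33 and 21 in DMSO. The CRIM1 row held 2434, 1665 and 1753 counts in VT107, against 2952, 2873 and 2253 in DMSO, and AC007401.2 on the other strand had 7115 counts over the 3 DMSO libraries, against 8078 on the CRIM1 row. In CPM the groups did not overlap for any of the 4, where 14.7% of genes tested were lower in this way, and log2 fold changes were -3.04 for F3, -1.78 for CCDC80, -0.85 for NUAK2 and -0.69 for CRIM1. These values served to choose the genes and carry no test. NPPB, ANKRD1 and EDN1 were not analysed in H226 cells.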

How the data were processed

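RNA-seq covered NF1 mutant and parental H2052 cells and H226 cells after 24 h in 1 µM VT107 or DMSO, with 3 replicates in each of 6 groups (18 libraries). The deposited values are raw counts per gene, made by the authors with bcl2fastq 2.20.0.422 and genome build hg19 per the submitters' processing notes. The aligner, counter, annotation, strand setting and kit were not given in the sources used here. Counts of repeated IDs (63 rows in H2052, 10 in H226) were added up. Beside counts the H226 table has the authors' DESeq log2 fold change, p-value and FDR columns as deposited, which were not used, nor were 16 columns that matched no described sample.

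The tools were edgeR 4.0.16, DESeq2 1.42.0 and limma 3.58.1 in R 4.3.3. CPM is the count over the library's total, times 1000000. For each comparison, genes reaching 0.5 CPM in all of its libraries were normalized by TMM and tested with edgeR's quasi-likelihood test, with Benjamini-Hochberg adjustment over all genes and a threshold of 0.05. Standard errors and 95% intervals are those of the fit. The smallest p an exact permutation test can reach with 3 against 3 is 0.1, so none was used. The labels call the replicates separate samples, and the paper calls them biological.

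The members and gene lists were chosen with earlier results of these data known. All 7 members were named in every comparison, with up to 4 genes of each list: those with the smallest p for VT107 in NF1 mutant cells, the receptors or processing enzymes of member ligands, and the 2 genes most like each member. Genes that passed by genotype or with a library left out and fell outside that rule were named after their values were seen. Replicate numbers were taken to pair libraries where every correlation of same-numbered deviations exceeded 0.1, which held for VT107 against DMSO in parental cells alone (0.61, 0.49 and 0.80), and there numbers 1 and 2 also correlated with each other (0.61 and 0.52). Alternatives were RLE factors, DESeq2, voomWithQualityWeights, no filter, a minimum of 10 counts in 2 libraries per group, the replicate block, each library left out, and all 4 H2052 groups in 1 fit. The filter of 0.5 CPM in at least 3 libraries, alone or without NF1 mutant VT107 replicate 1, and leaving out parental number 3 were added after seeing the data.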

Additional observations from a re-analysis of the deposited data

How the results depend on the processing

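With counts of this depth and 3 libraries a group, EDN1 and the lowest NPPB library lie at the limit of detection. For VT107 in NF1 mutant cells, 0 genes passed with all libraries, 20 with DESeq2, 170 with voomWithQualityWeights, 3 with all 4 H2052 groups in 1 fit, 0 to 198 with 1 library left out and 209 with the looser filter without VT107 replicate 1. By genotype in DMSO 3420 passed, against 6551 with voomWithQualityWeights, 963 with all 4 groups in 1 fit and 1779 to 6409 with 1 library left out. By genotype under VT107 0 passed, against 682 with DESeq2, 3625 with voomWithQualityWeights, 196 without a filter, 1297 with all 4 groups in 1 fit and 0 to 185 with 1 library left out. For VT107 in parental cells 0 passed, against 32 with DESeq2, 18 with voomWithQualityWeights, 215 with the replicate block and 44 without the number 3 libraries. In H226 2499 passed, and 1645 to 2221 with 1 library left out.

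Sign changes among the tested results were those of CCDC80, NUAK2 and F3. CCDC80 under VT107 in NF1 mutant cells turned to 0.0099 with RLE factors, 0.0098 with DESeq2 and 0.018 with at least 10 counts, and ran from -0.33 to 0.15 with 1 library left out, and NUAK2 from -0.25 to 0.0047. By genotype in DMSO, F3 turned to -0.029 with voomWithQualityWeights and ran from -0.14 to 0.25 with 1 library left out, and NUAK2 turned to 0.49 and ran from -0.49 to 0.51. By genotype under VT107, F3 turned to -0.0020 with the replicate block and ran from -0.36 to 0.38 with 1 library left out, and CCDC80 turned to 0.024 with RLE factors and 0.024 with DESeq2 and ran from -0.38 to 0.12. The cause was not tested. By genotype and for VT107 in NF1 mutant cells the libraries share only a number, and the replicate block changed no call there among the members fitted with it, which leaves out NPPB and EDN1 under VT107: ANKRD1 stood at -2.47 for VT107 in NF1 mutant cells (adjusted p 0.859) and at -1.24 by genotype in DMSO (0.00243).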
